A study of Oryctolagus cuniculus with 12 samples.

Results

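The genes described here encode 10 proteins of blood plasma that are made mainly by the liver: AHSG, APOB, HPX, ITIH1, ITIH2, ITIH3, ITIH4, HRG, SERPINF2 and VTN. They were measured in fetal rabbit heart, a tissue not known as their main source. The genes were chosen by symbol with earlier results of these data known, so member shares set beside the whole table are descriptions only. Every probe of the array annotation with 1 of these current symbols was used. These are 25 probes of the 1673 that carry a gene name and of the 43603 in the table, and 10 of 591 named genes. AHSG and HRG have 5 probes each, SERPINF2 has 6, APOB has 3, and HPX, VTN and the 4 ITIH genes have 1 each. For a gene with several probes, the brightest one by its mean over the 12 hearts stands for it, and the others are given beside it. For APOB that choice rests on 1 heart, as described with its values.

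The samples are frozen ventricles of fetal rabbits (Oryctolagus cuniculus), 6 with intrauterine growth restriction (IUGR) and 6 controls, with 1 single-colour Agilent array for each heart. The labels number them as 6 pairs of 1 IUGR and 1 control heart without saying what the partners of a pair share, and the titles call the IUGR samples treatment, a treatment that the sources used here do not describe. Strain, age and sex are not given in the labels, nor whether the pairs come from separate litters. The p-values therefore reflect how these 6 pairs vary, which may be partly technical. RNA integrity numbers ran from 9.3 to 9.9 per the labels. Values are log2 probe signals from 1.36 to 15.83, so a step of 1 is a doubling, and differences are IUGR minus control.

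These proteins leave the hepatocyte through the secretory route and circulate in blood. AHSG, or fetuin-A, is abundant in fetal plasma and binds calcium phosphate. APOB is the structural protein of very low and low density lipoproteins, and HPX, haemopexin, binds free haem. The inter-alpha-trypsin inhibitor heavy chains ITIH1, ITIH2 and ITIH3 are carried on bikunin and are transferred to hyaluronan in the extracellular matrix, while ITIH4 lacks the bikunin link and is an acute-phase protein. HRG binds heparin, plasminogen and divalent metals, SERPINF2 inhibits plasmin, and VTN, vitronectin, anchors cells and binds the inhibitor of plasminogen activators. An array reads transcripts in the tissue, not protein brought by blood. In a piece of tissue, fewer cells of a type and less RNA per cell cannot be told apart.

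AHSG, ITIH4 and HPX were the only members whose standing probe lay above the median probe level of 4.61, at percentiles 77.1, 62.5 and 55.7 of the probe means in the table. The other 7 lay below it, from percentile 18.9 for VTN to percentile 44.1 for SERPINF2. Detection flags were not used here, so a low signal is given as a signal and not as proof of a transcript. The marks of heart muscle were strong in every sample: MYH6, RYR2 and CKM, the 3 measured of 12 heart muscle markers, averaged 14.39 to 14.60 in IUGR hearts and 14.31 to 14.62 in control hearts.

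AHSG was the member with a strong signal and a wide spread between hearts. Its standing probe ran from 5.39 through a median of 7.11 to 10.24 in IUGR hearts, against 7.51, 8.09 and 11.74 in control hearts. The lowest heart, IUGR replicate 2, and the highest, control replicate 6, were 6.35 log2 apart, an 81.4-fold span. All 5 AHSG probes gave the same picture, with spans from 56.3-fold to 83.9-fold and correlations between probes of 0.991 to 0.999 across the 12 hearts. Without control replicate 6 the probes still correlated at 0.987 to 0.998. Probes of 1 transcript share the RNA and the array, so this agreement speaks to the measurement and adds no heart to the sample.

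The hearts fell in 2 sets by AHSG. Control replicate 6 (11.74), control replicate 1 (10.38), IUGR replicate 6 (10.24) and IUGR replicate 3 (10.14) were high, and the next heart, control replicate 4, was 1.82 log2 below them at 8.32. The other 8 hearts ran from 8.32 down to 5.39. On the standing probe the 4 lowest were all from the IUGR group and the 4 above them all from the control group. This did not hold on the first probe, where IUGR replicate 1 (7.56) lay above control replicates 3 and 5 (7.32 each). The high set held 2 hearts of each group. Neighbours within the high set below control replicate 6 were at most 0.14 log2 apart on the standing probe, and all 5 probes placed them in the same order.

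Pair by pair, AHSG was lower in the IUGR heart in 5 of 6 pairs. In pair 1 it stood at 7.35 in the IUGR heart and 10.38 in the control heart, in pair 2 at 5.39 and 7.87, in pair 4 at 6.59 and 8.32, in pair 5 at 6.86 and 7.53, and in pair 6 at 10.24 and 11.74. Pair 3 ran the other way, with 10.14 in the IUGR heart and 7.51 in the control heart. The mean was 7.76 ± 1.99 in IUGR hearts and 8.89 ± 1.76 in control hearts (SD, n = 6 each), and the groups overlapped.

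**Figure D1:**
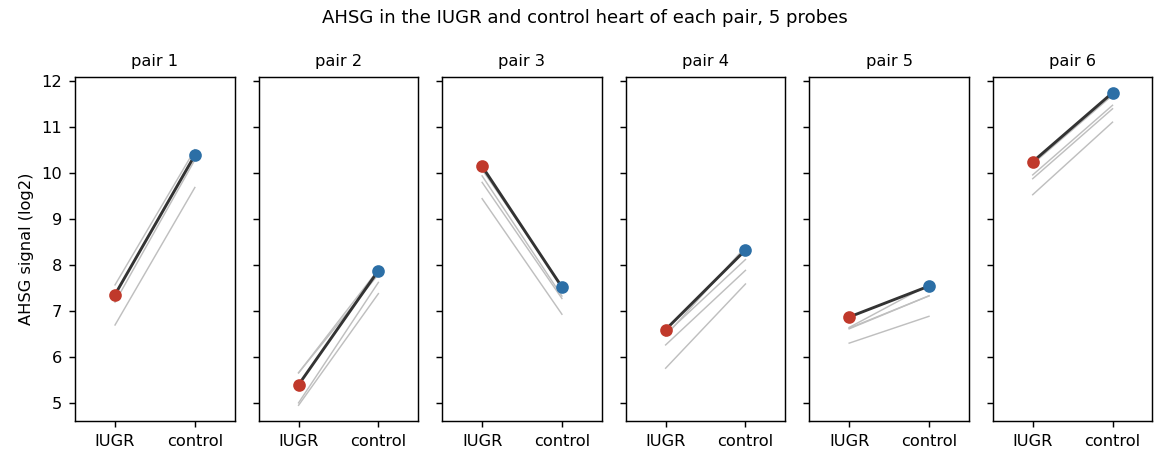
AHSG signal (log2, vertical axis) in the IUGR heart (left point) and the control heart (right point) of each of the 6 pairs. The dark line is the standing probe and the grey lines are the other 4 probes; the line climbs from IUGR to control in 5 pairs and drops in pair 3, by 2.63 log2.

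The mean AHSG difference was -1.13 ± 2.01 (SD of the 6 pairs), a ratio of 0.457, with a 95% interval from -2.77 to 0.51. It was smaller than the spread of the pairs and did not pass the test (limma adjusted p = 0.982, and exact sign-change p = 0.25, where 6 pairs allow no p below 0.03125). The other 4 probes gave differences of -1.07 to -1.17. Pair 3 is the 1 pair of opposite sign, so leaving it out can only give a larger difference. It was -1.88 then, and between -1.22 and -0.75 with any other pair left out. Pair 3 also had the highest mean of the atrial genes NPPA, SLN and GJA5 in each group, at 11.07 in the IUGR heart (other IUGR hearts 7.63 to 8.61) and 9.30 in the control heart, and their part in the AHSG values was not tested.

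Over all 10 genes, no difference between IUGR and control passed the threshold. Of the 25 probes 0 had a limma adjusted p under 0.05, as for 0.0% of all probes, and 0 had an unadjusted p under 0.05, against 3.58% of all probes (1.55% lower in IUGR). The difference was below 0 for 17 of 25 probes and for 7 of 10 genes, where 48.0% of all probes were below 0. Of these probes, 5 read AHSG and 4 read SERPINF2. The count of genes leaned on pair 6. Without it ITIH2 (0.11), ITIH3 (0.078), SERPINF2 (0.068) and VTN (0.0097) were above 0, and HRG (-0.18) was below 0. The median difference was -0.32 over the 10 genes and 0.01 over all probes. None of the 25 probes had 1 sign in 6 of 6 pairs (2.25% of all probes), and none had groups that did not overlap (0.0505% of all probes). One sign in at least 5 of 6 pairs was seen for 2 of 10 genes, AHSG and ITIH3, both lower in IUGR. Over all probes 20.1% had such a sign, close to the share of the 10 genes, and 8.37% were lower in IUGR. By probe the count was 8 of 25, with 7 lower in IUGR, and 5 of these read the same AHSG transcript.

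**Figure D2:**
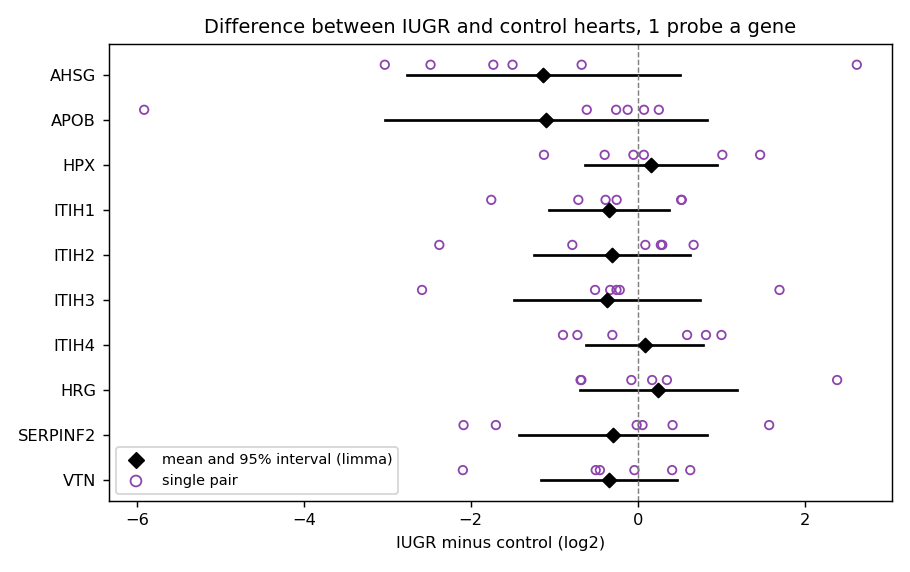
IUGR minus control difference (log2, horizontal axis) of each gene. Diamonds and bars are the mean of 6 pairs with its 95% interval from limma, and open circles are single pairs; every interval crosses 0, and the circle far to the left is APOB in pair 2, at -5.91.

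SERPINF2, the plasmin inhibitor, stood out in 1 heart. Its standing probe ran from 2.33 through a median of 3.89 to 4.61 in IUGR hearts, against 3.04, 3.71 and 6.17 in control hearts. The highest value was control replicate 6, which stood 1.56 log2 above every other heart. The same was seen with 5 of the 6 probes: control replicate 6 lay at 5.82 to 7.10 on them, and the other 11 hearts lay at 2.19 to 4.61. The sixth probe was dim in all hearts, from 2.04 to 3.49, and was highest in control replicate 4.

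The 5 agreeing SERPINF2 probes correlated at 0.75 to 0.90 with each other over the 12 hearts. Without control replicate 6 this was 0.29 to 0.79, with a median of 0.59, so part of the agreement lay in the other hearts as well. The group difference of the standing probe was -0.29 ± 1.37 (95% interval -1.42 to 0.84, limma adjusted p = 0.982), higher in IUGR in 3 pairs and lower in 3. It was 0.068 without pair 6, and the 6 probes ran from -0.52 to 0.09.

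Of the heavy chains of the inter-alpha-trypsin inhibitor, ITIH3 varied most between hearts. It ran from 2.09 through 2.81 to 4.54 in IUGR hearts, against 2.34, 2.91 and 7.12 in control hearts, a 32.8-fold span. The 3 highest hearts were control replicate 6 (7.12), IUGR replicate 6 (4.54) and IUGR replicate 3 (4.26), and these 3 are also among the 4 hearts high in AHSG. Control replicate 1, the second highest in AHSG, stood at 2.77 for ITIH3 and ranked 7 of 12. ITIH3 was lower in IUGR in 5 of 6 pairs, with a mean difference of -0.37 ± 1.36 (95% interval -1.48 to 0.75, limma adjusted p = 0.982) that turned to 0.078 without pair 6.

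ITIH2, the other chain highest in control replicate 6, ran from 2.33 through 2.52 to 3.36 in IUGR hearts, against 1.96, 2.95 and 4.71 in control hearts. Its difference was -0.30 ± 1.13 (95% interval -1.24 to 0.63) and 0.11 without pair 6. ITIH1 ran from 1.84 through 2.61 to 3.08 in IUGR hearts, against 2.02, 2.87 and 4.24 in control hearts, with its highest value in control replicate 4 and the next in control replicate 6 (3.38). The ITIH1 difference was -0.34 ± 0.85 (95% interval -1.06 to 0.38) and shrank to -0.06 without pair 4. Neither passed the test (limma adjusted p = 0.982 for both).

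ITIH4 had a clear signal in every heart. It ran from 5.13 through 6.62 to 7.74 in IUGR hearts, against 5.44, 6.43 and 7.44 in control hearts, with IUGR replicate 4 highest and control replicate 6 next. The groups lay over each other, with a difference of 0.08 ± 0.83 (95% interval -0.62 to 0.78, limma adjusted p = 0.989) that reached -0.10 with pair 3 left out and 0.28 with pair 2 left out. On the RefSeq assembly of the rabbit genome (mOryCun1.1), ITIH4, ITIH3 and ITIH1 are direct neighbours on chromosome 10 with 0 other protein-coding genes between them, and ITIH2 lies on chromosome 13. The neighbours did not peak in the same heart: ITIH4 was highest in IUGR replicate 4, ITIH3 in control replicate 6 and ITIH1 in control replicate 4. AHSG and HRG also lie close to each other, on chromosome 4 with only FETUB between them.

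VTN, the adhesive protein, was dim in 11 hearts and higher in control replicate 6. It ran from 2.11 through 2.55 to 2.99 in IUGR hearts, against 2.06, 2.56 and 5.08 in control hearts. Control replicate 6 was 2.00 log2 above every other heart. The group difference of -0.34 ± 0.97 (95% interval -1.15 to 0.47, limma adjusted p = 0.982) was 0.0097 without pair 6.

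HPX, the haem carrier, had the smallest range of the 10 standing probes. It ran from 4.71 through 5.57 to 6.49 in IUGR hearts, against 4.70, 5.31 and 6.44 in control hearts, a 3.45-fold span. IUGR replicate 5 and control replicate 6 were its highest hearts, 0.05 log2 apart. Its difference was 0.16 ± 0.94 (95% interval -0.63 to 0.95, limma adjusted p = 0.985), with 3 pairs each way, and it reached -0.10 with pair 5 left out and 0.42 with pair 6 left out.

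APOB and HRG each had a very high value in a single heart that the other probes of the gene did not repeat at that size. The first APOB probe is the brightest of its 3 through 1 heart, since its mean was 2.35 without control replicate 2, against 2.76 and 2.74 for the others. It ran from 1.72 through 2.28 to 2.91 in IUGR hearts, against 2.04, 2.49 and 8.07 in control hearts, and 8.07 was control replicate 2. In that heart the other 2 APOB probes stood at 3.28 each, inside their own range over the other hearts of 1.94 to 3.71 and 1.88 to 4.04. The 3 probes correlated at 0.20 to 0.46 across the hearts, where the 5 AHSG probes reached 0.991 at the least. The mean difference of the first probe was -1.10 ± 2.38 (95% interval -3.03 to 0.84, limma adjusted p = 0.982). It was -0.13 without pair 2, so most of its size comes from that 1 value. The other probes gave 0.0037 and 0.27, so the sign of the gene's difference depends on the probe.

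For HRG the first probe stood at 8.95 in control replicate 4, 6.40 log2 above every other heart. The third probe was also highest there, at 5.21 with the other 11 hearts from 2.00 to 2.99, while probes 2, 4 and 5 stood at 2.78, 2.38 and 2.38. The fifth probe, which stands for the gene, was highest in IUGR replicate 6 instead. It ran from 2.40 through 2.88 to 5.21 in IUGR hearts, against 2.38, 2.95 and 3.53 in control hearts. Its difference was 0.25 ± 1.13 (95% interval -0.69 to 1.19, limma adjusted p = 0.982), -0.18 without pair 6 and 0.43 without pair 5. The other 4 probes ran from -1.12 to 0.28, and the mean of all 5 probes gave -0.28.

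A highest heart at least 4 log2 above every other heart was seen for 2 of the 25 probes, the first of APOB and the first of HRG, against 1.05% of all probes. Such probes were not spread evenly over the arrays. Control replicate 4 held 107 of them, control replicate 2 held 37, and the other arrays held from 20 to 50. What makes a probe jump in 1 array was not tested.

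**Figure D3:**
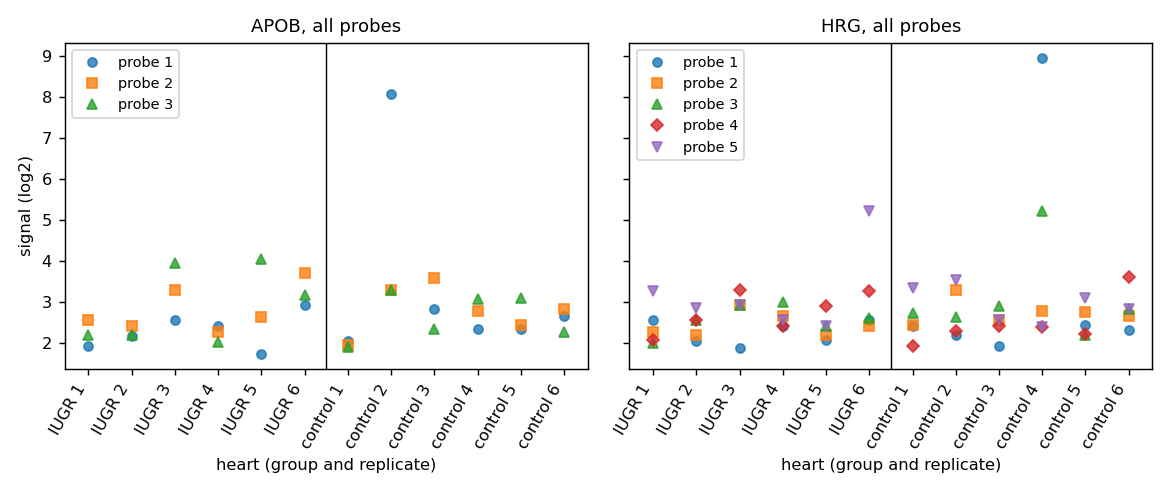
Signal (log2, vertical axis) of the 3 APOB probes (left panel) and the 5 HRG probes (right panel) in 6 IUGR hearts and 6 control hearts (horizontal axis). The first APOB probe reaches 8.07 in control replicate 2 and the first HRG probe 8.95 in control replicate 4, while most other points lie between 2 and 4.

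The members varied more between hearts than most probes did. The range over the 12 hearts was above 2 log2 for 20 of 25 probes and 9 of 10 genes, HPX being the exception, where 26.7% of all probes had such a range. For 5 of the 20 probes, those of AHSG, few probes of their level did (4.57% to 6.48%), and for ITIH4 13.3% did. For ITIH3 and the 5 agreeing SERPINF2 probes such a range was common at their level (57.4% to 64.6%). At the level of APOB, HRG, ITIH1, ITIH2 and VTN it was found for 30.9% to 47.3%. The range was above 4 log2 for 9 probes (5 of AHSG, 1 each of APOB, HRG, ITIH3 and SERPINF2), where 4.59% of all probes had it. Probes of the same level are those within 0.5 log2 of a probe's own mean. By the SD over the 12 hearts, the 5 AHSG probes stood at percentiles 99.7 to 99.9 of the probes of their level, ITIH4 at 93.7 and ITIH3 at 92.9. HPX stood at 74.8, ITIH1 at 74.7, ITIH2 at 79.5 and VTN at 86.0, the 5 agreeing SERPINF2 probes at 74.6 to 90.3 and the sixth at 27.2. The APOB and HRG probes ran from percentile 10.8 to 99.5, with the probes that jumped in 1 heart at 98.7 and 99.5.

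Control replicate 6 was the heart in which several members were highest together. Of the 10 genes, 5 had their highest value there (AHSG, ITIH2, ITIH3, SERPINF2 and VTN) and 3 their second highest (HPX, ITIH1 and ITIH4), while APOB ranked 4 and HRG 8. Over the table, 7.83% of all probes and 6.26% of named genes were highest in this heart. Against the median of the other 11 hearts it stood higher by 4.36 log2 for ITIH3, 4.20 for AHSG, 2.61 for VTN, 2.49 for SERPINF2, 2.07 for ITIH2, 0.98 for HPX, 0.91 for ITIH4 and 0.83 for ITIH1. By probe, 14 of 25 were highest there, 10 of them from AHSG and SERPINF2.

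The array of control replicate 6 did not stand apart as a whole. It correlated with the other arrays at a median of 0.966 across probes, and the medians of the 12 arrays ran from 0.963 to 0.971. It lay far above the other control hearts by Dixon's test for 1.22% of all probes, where the 12 arrays ran from 0.681% to 1.57% against their own group. Its IUGR partner, IUGR replicate 6, ranked 3 for AHSG, 2 for ITIH3, 3 for VTN, 4 for SERPINF2 and 10 for ITIH2.

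**Figure D4:**
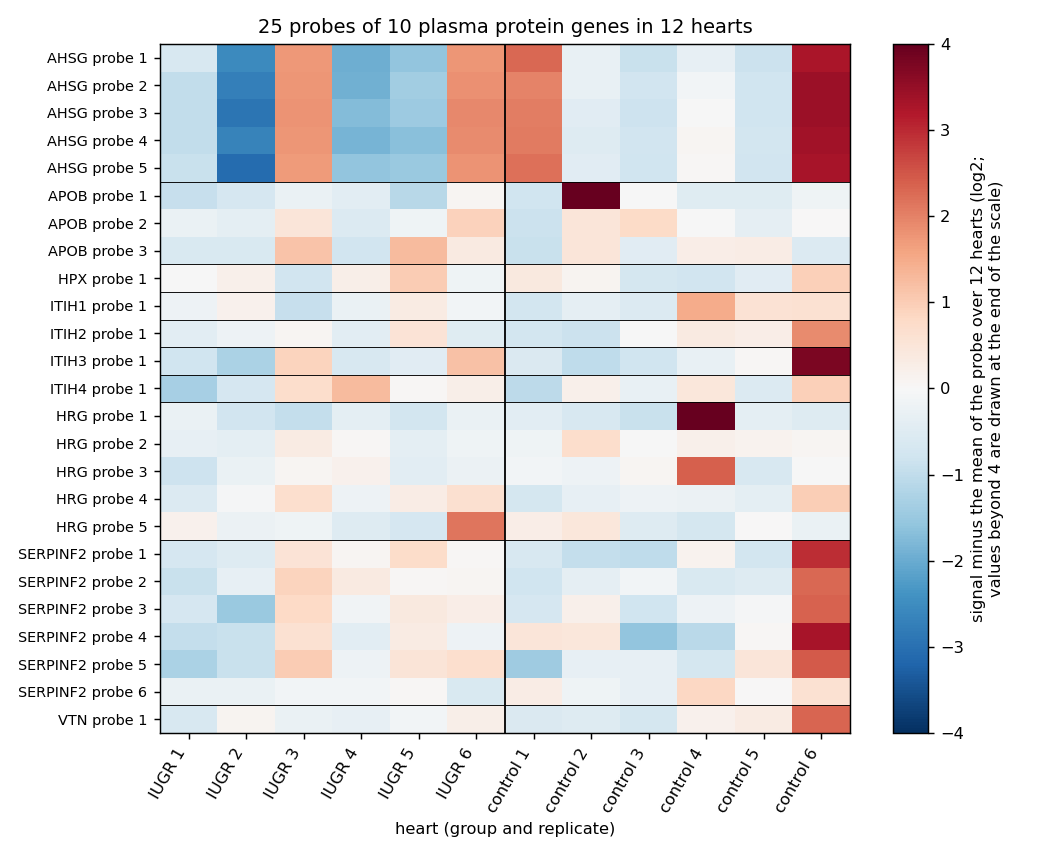
Signal of each of the 25 probes (rows, grouped by gene) minus its own mean over the 12 hearts (log2, colour), in 6 IUGR hearts (left of the line) and 6 control hearts. The column of control replicate 6 is red for AHSG, ITIH2, ITIH3, SERPINF2 and VTN, and the single dark cells are APOB in control replicate 2 and HRG in control replicate 4.

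Covariation between the genes was uneven, and much of it lay in pair 6. Over the 45 pairs of genes the median Pearson's r across the 12 hearts was 0.25, with 34 above 0 and a span from -0.41 for ITIH2 with HRG to 0.89 for ITIH3 with SERPINF2. Without control replicate 6 the median was 0.06 and 24 were above 0, and without both hearts of pair 6 it was -0.019. Over the 5855 relations between a member and any other named gene the median r was -0.03. The relations were tested by permutation and adjusted over all 5855, and none passed, with 9 of the 45 at an unadjusted p under 0.05 for r and 7 for Spearman's rho. Over all 5855 relations 400 (6.83%) and 414 (7.07%) had one, and the 45 share genes and hearts. Partners of a pair resemble each other, so the 12 hearts are not fully independent.

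ITIH3 and SERPINF2 had r = 0.89 (permutation p = 0.00043, adjusted p = 0.357) and rho = 0.75 (permutation p = 0.00713, adjusted p = 0.582). Without the 2 hearts farthest from the median of ITIH3, which are those of pair 6, r was 0.73, and without control replicate 6 alone it was 0.69. AHSG and ITIH3 had r = 0.79 (permutation p = 0.00076, adjusted p = 0.36) and rho = 0.69 (permutation p = 0.0156, adjusted p = 0.62), r = 0.88 without the 2 hearts farthest in AHSG, control replicates 6 and 1, and r = 0.71 without control replicate 6 alone. AHSG and SERPINF2 had r = 0.70 (permutation p = 0.00955, adjusted p = 0.604) and rho = 0.51 (permutation p = 0.0929, adjusted p = 0.749), r = 0.71 without those 2 hearts, and r = 0.49 without control replicate 6 alone. ITIH4 and SERPINF2 had r = 0.65 (permutation p = 0.0173, adjusted p = 0.604) and rho = 0.64 (permutation p = 0.0281, adjusted p = 0.659), r = 0.63 without the 2 hearts farthest in ITIH4, those of pair 1, and r = 0.61 without control replicate 6.

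Because AHSG split the hearts in 2 sets, r was also taken within the 8 hearts below the gap, where it was 0.51 for ITIH3 and 0.56 for SERPINF2, with rho = 0.40 and 0.29. The high set holds 4 hearts, too few for a value. Control replicate 6 carried much of some other values. ITIH3 with VTN had r = 0.45 without this heart and 0.27 without both hearts of pair 6, against 0.87 over all hearts. ITIH2 with ITIH3 had r = 0.19 without it and 0.054 without control replicates 6 and 2, against 0.75 over all hearts. For HPX, APOB and HRG the highest r with any other member was 0.39, for HPX with VTN. HRG ran against ITIH2, with r = -0.41, or -0.56 without control replicate 6, and rho = -0.74 (permutation p = 0.00708, adjusted p = 0.582). The highest rho of the 45 was 0.76, for ITIH1 with VTN (permutation p = 0.00643, adjusted p = 0.579). Their r was 0.55, and 0.68 without control replicate 6. The standing probes of ITIH1, VTN, ITIH2 and HRG were dim, with means of 2.76, 2.75, 2.83 and 3.07. The order of hearts on them, and so these values of rho, says little.

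**Figure D5:**
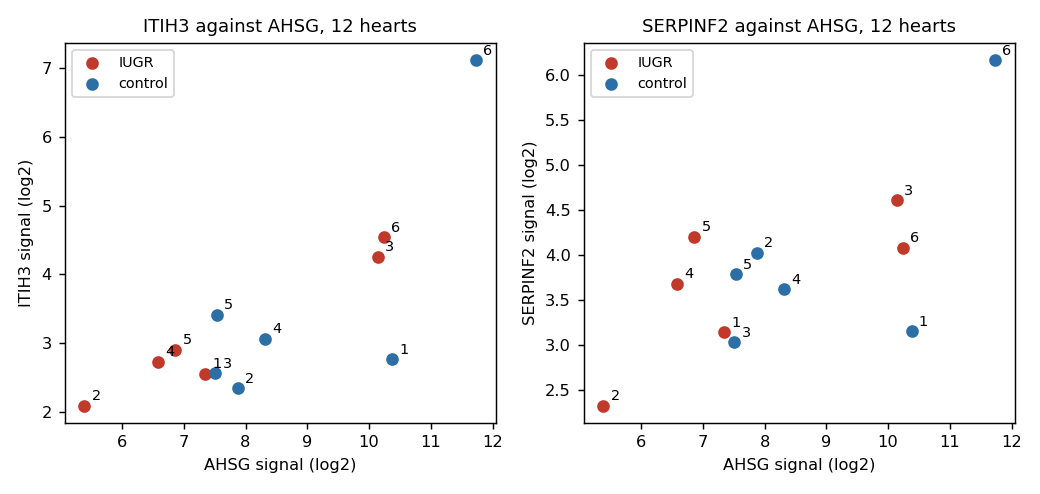
ITIH3 (left panel) and SERPINF2 (right panel) against AHSG, all as log2 signals, in 12 hearts; the numbers are replicates. Control replicate 6 lies at the upper right in both, with IUGR replicates 3 and 6 below it and control replicate 1 high in AHSG only.

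By likeness of pattern over the 12 hearts, the named genes closest to the mean profile of the 10 members were CR1 (r = 0.84), KCNB2 (r = 0.79), TF (r = 0.74), RBP4 (r = 0.71) and HNRNPK (r = 0.68). CR1 is a complement receptor, KCNB2 a potassium channel, and HNRNPK an RNA-binding protein. TF, transferrin, and RBP4, the retinol carrier, are plasma proteins of the liver too and were listed as such without being members. Without control replicate 6 these values were 0.47, 0.33, 0.21, 0.47 and 0.66. They are given as a description, without a test.

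Closest to AHSG alone were RBP4 (r = 0.84, permutation p = 0.00067, adjusted p = 0.357; rho = 0.72, permutation p = 0.011, adjusted p = 0.606), FGF8, a growth factor, with r = 0.79, and KCND3, a potassium channel, with r = 0.76. RBP4 ran from 5.18 to 6.58 in IUGR hearts and from 4.98 to 7.68 in control hearts. Its 4 highest hearts were control replicate 6 (7.68), control replicate 1 (7.36), IUGR replicate 6 (6.58) and IUGR replicate 3 (6.31), the same 4 that were high in AHSG. Within the 8 hearts below the AHSG gap the r of AHSG and RBP4 was 0.16. FGF8 and KCND3 lay at percentiles 0.0252 and 7.39 of the probe levels, low in the table. Closest to APOB were CD86 (r = 0.96), RAB11A (r = 0.93) and KCNJ12 (r = 0.90), all highest in control replicate 2, the heart of the 1 high APOB value; without the 2 hearts farthest in APOB these were 0.57, 0.39 and -0.28.

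Other proteins of the hepatocyte were read from lists of names. For every list, a gene counts as measured if a named probe carries its symbol, and unnamed probes were not searched. Of 74 further plasma proteins 15 were measured, with 0 past the adjusted threshold, 0 at an unadjusted p under 0.05, 9 above 0 and 6 below 0, and a median difference of 0.14. Their mean level ran from 4.46 to 4.93 in IUGR hearts and from 4.24 to 4.95 in control hearts, and control replicate 6 ranked 3 of 12. Of the 15, 3 were highest in that heart (TF, RBP4 and C8A), where 6.26% of named genes were. C8A was dim, with a mean of 2.86 and a range of 0.79 log2. Others went the other way there. C8G, also dim, was lowest of the 12 hearts at 2.25, and APOE stood at 3.27, where control hearts ran from 2.63 to 5.47. TF stood at 10.08 in control replicate 6, with the other 11 hearts from 8.86 to 9.47. GC, the vitamin D binding protein, was highest in IUGR replicate 3, closely followed by IUGR replicate 2 at 6.99, and stood at 4.71 in control replicate 6. C9, a complement protein, had a range of 0.84 log2 and PROS1, protein S, of 1.04.

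Enzymes and carriers inside the hepatocyte had r with AHSG from -0.37 (UGT2B14) to 0.28 (ALDH1A1). ALDH1A1, the brightest, was highest in IUGR replicate 6 (7.84), control replicate 6 (7.75) and IUGR replicate 3 (7.64), all hearts high in AHSG. It was lowest in control replicate 1 (5.67), which was high in AHSG too. CYP8B1, SLC10A1, UGT2B14, FMO5 and SULT2A1 were dim, with means of 2.72 to 3.30, so their order says little. Of 40 listed, 8 were measured, 1 with an unadjusted p under 0.05 (SULT2A1, a sulfotransferase, higher in IUGR) and 0 past the adjusted threshold, with a median difference of 0.05. Their mean level ran from 3.69 to 4.29 in IUGR hearts and from 3.76 to 4.03 in control hearts, and control replicate 6 ranked 7 of 12. Of the 8, 0 were highest in that heart, where 6.26% of named genes were, so few would be looked for among 8. The defining hepatocyte genes ALB, AFP, TTR, SERPINA1, HNF4A and CPS1 were not analysed here.

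Partners and receptors of the members were measured for 7 of 21 listed genes: TNFAIP6, which moves heavy chains onto hyaluronan, HAS2, a hyaluronan synthase, LRP1, a receptor for haem bound to haemopexin, ITGB3, a chain of the vitronectin receptor, PLAT, a plasminogen activator, CD36, a lipid receptor, and APOE, a lipoprotein component. None passed the adjusted threshold and none had an unadjusted p under 0.05, with 4 above 0, 3 below 0 and a median difference of 0.02. HAS2 was lower in IUGR in 5 of 6 pairs, with a difference of -0.72 ± 1.08 (limma adjusted p = 0.982). It ran from 2.76 to 4.33 in IUGR hearts, against 3.35 to 5.53 in control hearts.

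Markers of other tissues that a ventricle sample could hold were read beside these values, and their part in the results was not tested. Blood and erythroid genes (3 of 13 measured) averaged 13.87 to 14.50 in IUGR hearts and 13.62 to 14.19 in control hearts, and control replicate 6 ranked 11 of 12. Their mean was higher in the IUGR heart in 6 of 6 pairs, by 0.22 ± 0.12 (SD of pairs). HBA, a haemoglobin chain, was higher in 6 of 6 pairs, by 0.41 ± 0.31 (limma unadjusted p = 0.0224, adjusted p = 0.982). The other measured genes of the list, HBB2 and BPGM, were higher in 4 of 6 pairs each, by 0.12 ± 0.29 and 0.14 ± 0.26 (limma unadjusted p = 0.391 and 0.303). Over all probes 2.25% had 1 sign in 6 of 6 pairs. Lung genes (2 of 5) averaged 6.84 to 7.77 in IUGR hearts and 6.35 to 7.88 in control hearts, with control replicate 6 lowest. Intestinal SI, the only measured gene of its list of 10, was lowest there as well, and the kidney genes (2 of 5) ranked 9. Atrial genes (3 of 4) ranked 10 in control replicate 6 and were highest in IUGR replicate 3, at 11.07, where the other IUGR hearts averaged 7.63 to 8.61. Skeletal muscle genes (4 of 8) averaged 7.88 to 8.66 in IUGR hearts and 7.89 to 8.71 in control hearts, with the mean highest in control replicate 6. Of the 4, only ACTN3 was highest there, at 4.01, and it was dim, with a mean of 2.96. TNNI2 was highest in control replicate 1, TNNC2 in IUGR replicate 4 and MYH1 in IUGR replicate 2.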

How the data were processed

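Total RNA from 12 fetal rabbit ventricles (500 ng each) was labelled with Cy3 and hybridised to single-colour Agilent arrays, per the labels' protocols. Per the submitters' processing notes RMA was used, with no version stated, and the deposited table holds the authors' log2 signal of each probe. Base 2 follows from the highest value, 15.83, near the ceiling of a 16-bit scanner. The sources used here do not give the scanner software, the background method or a probe filter. The 12 arrays have nearly the same distribution of values, so a shift shared by most transcripts would not be seen. Precision is limited by having 6 pairs.

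Symbols came from the platform annotation and were updated through transcript accession, symbol or synonym to RefSeq names. Values were used as deposited, with no filter on dim probes. Differences were fitted over all 43603 probes using lmFit and eBayes of limma 3.58.1, run in R 4.3.3, with a fixed block for each pair and two-sided tests, and adjusted by Benjamini and Hochberg with a threshold of 0.05. The fit was tested on simulated data. The design text calls the samples paired. Within a pair, the departures from the 2 group means correlated at 0.129 to 0.254, and all 6 IUGR and 6 control arrays were closest to their own partner. The exact test changes the signs of the 6 pair differences in all 64 ways. Correlations used 100000 permutations, adjusted over 5855 relations. Named genes were the 10 members, the 5 named genes closest to their mean profile and the 3 closest to AHSG and to APOB, plus list members named beside their list. TF, C8A, GC, C9, PROS1, ALDH1A1, CYP8B1, SLC10A1, UGT2B14, FMO5, SULT2A1, HBA, HBB2, BPGM and HAS2 were named after their values were seen. So were C8G, APOE, ACTN3, TNNI2, TNNC2 and MYH1. Members and lists were chosen with earlier results of these data known.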

Additional observations from a re-analysis of the deposited data

Results flagged for a closer look

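Each group of 6 hearts was screened with Dixon's test for a heart far from the others of its group, for the 25 probes, the means of the 9 marker lists with 2 or more measured genes, and the genes of similar pattern. Of 88 groups 18 had such a heart, where chance gives about 1 in 20, or 4.4. The genes of similar pattern were picked for their likeness and the members were chosen with values known, so no excess is read from this.

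In control replicate 6, ITIH3 stood at 7.12 (other controls 2.34 to 3.41), VTN at 5.08 (2.06 to 3.08), the first 3 SERPINF2 probes at 6.24 (2.28 to 3.42), 5.82 (2.72 to 3.42) and 6.17 (3.04 to 4.03), and the fourth HRG probe at 3.59 (1.91 to 2.41). AHSG was highest there too but was not far from its group by this test. In control replicate 2, the first APOB probe stood at 8.07 (2.04 to 2.82). In control replicate 4, the first HRG probe stood at 8.95 (1.93 to 2.43) and the third at 5.21 (2.19 to 2.89). In IUGR replicate 6 the fifth HRG probe stood at 5.21 (other IUGR hearts 2.40 to 3.25).

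Among the genes of similar pattern, CR1 stood at 5.68 in control replicate 6 (other controls 2.11 to 3.33), KCNB2 at 5.13 (2.82 to 3.49) and TF at 10.08 (8.91 to 9.19). In control replicate 2, CD86 stood at 6.92 (2.25 to 3.56), KCNJ12 at 6.71 (2.00 to 3.39) and RAB11A at 9.02 (8.06 to 8.33). The mean of the atrial list was 11.07 in IUGR replicate 3 (7.63 to 8.61), and that of the skeletal muscle list was 7.88 in IUGR replicate 1 (8.39 to 8.66).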

How the results depend on the processing

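The count of probes past the adjusted threshold was 0, for the table and for the members, in each alternative: without the replicate block, with an intensity trend and robust prior, without probes below the median level (which kept 7 of the 25), after another quantile normalisation, or without 1 pair (lowest adjusted p = 0.897). Dropping the replicate block altered no call, and probes at an unadjusted p under 0.05 numbered 857 then, 624 of 21802 without dim probes, and 1562 in the fit as reported. Without pair 3, the pair of opposite sign for AHSG, 7 of the 25 member probes had a limma unadjusted p under 0.05. Over all 43603 probes 1980 had one in that fit. In each other alternative the count of member probes was 0. Leaving out pair 3 can only make the AHSG difference larger, and 5 of the 25 probes read the AHSG transcript. The 7 are therefore not read as a result about the set. Of 104 alternative values of the 10 gene differences 92 kept their sign, and those of AHSG and ITIH1 did so in each alternative run. Some could not turn a sign, since the fits without the block or with the trend and robust prior return the same difference. Nor could the mean of probes for a gene with 1 probe, or the highest-median probe of HRG, which is its standing probe. The 92 is therefore no measure of robustness. APOB kept its sign in the alternatives that use its first probe, with the jump in control replicate 2, alone or in the mean of probes. It was 0.0037 by the probe with the highest median, a choice made after seeing the data that gave -1.07 for AHSG and -0.52 for SERPINF2. Leaving out 1 pair gave ranges of -1.88 to -0.75 for AHSG, -1.37 to -0.13 for APOB and -0.52 to -0.06 for ITIH1. The sign turned for HPX (-0.01 without pair 4, -0.10 without pair 5; up to 0.42), ITIH4 (-0.10, -0.06 and -0.02 without pairs 3, 4 and 5; up to 0.28), and, without pair 6, for ITIH2 (0.11; down to -0.50), ITIH3 (0.078; down to -0.78), SERPINF2 (0.068; down to -0.66), VTN (0.0097; down to -0.54) and HRG (-0.18; up to 0.43). HRG was -0.28 with the mean of all probes, where the first probe, at 8.95 in control replicate 4, enters. The median r over gene pairs was 0.21 to 0.27 with rho, other centring, scaling or probe choice and -0.019 to 0.36 without 1 pair, below 0 without pair 6 alone. Chosen after seeing the data, it was 0.06 without control replicate 6 and 0.34 without control replicate 2. The 5 genes highest in 1 heart became 2 without pair 6, since that heart is gone, and up to 7 without another pair. The 20 probes with a range above 2 log2 were 15 to 20 without 1 pair; 25 had a range above 1 and 15 above 3 log2.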
